A study of Mus musculus with 12 samples.

Results

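The genes described here are p53 (Trp53), 4 genes that regulate it or are switched on by it (Mdm2, Ccng1, Trp53inp1 and Phlda3), and 5 inhibitors of cyclin-dependent kinases (Cdkn1a, Cdkn1b, Cdkn2a, Cdkn2b and Cdkn2c). They were taken by name, with every probe set that the probe table lists for 1 of these genes alone. Trp53 was not analysed here, which left 9 of the 10 genes, with 16 of 34945 probe sets and 9 of 18193 genes. Cdkn2a was 4.48-fold higher in Stat5-null fibroblasts than in wild-type ones, and Cdkn2c was 4.44-fold lower. In null cells that carried a STAT5A vector, Cdkn2a was 3.69-fold below and Cdkn2c 7.10-fold above its level in the null cells. Growth hormone changed 1 of the 9 genes past the test within a genotype, Trp53inp1 in wild-type cells, where 6.00% of all genes passed. This call was lost when the wild-type groups were fitted alone. None of the 9 passed in the null cells or in those with the vector, against 0.308% and 7.88% of all genes.

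p53 is a transcription factor that stays scarce while MDM2 marks it for destruction, and that accumulates after DNA damage or oncogene signalling, where it switches on genes that halt the cell cycle, repair DNA or kill the cell. Cyclin-dependent kinases drive the cycle by phosphorylating the RB proteins and so freeing E2F factors. Inhibitors of the INK4 family (Cdkn2a, Cdkn2b, Cdkn2c) bind CDK4 and CDK6, and those of the CIP/KIP family (Cdkn1a, Cdkn1b) act on a wider set of cyclin-CDK pairs. Embryonic fibroblasts in culture are the classical setting for these genes, because the Cdkn2a locus is induced with passage and brings on senescence.

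Total RNA of mouse embryonic fibroblasts (MEFs) of strain C57BL/6 was hybridised to 12 Affymetrix arrays, in 6 groups of 2. The wild-type cells (WT), the Stat5-null cells (KO) and the null cells infected with a retrovirus carrying STAT5A (S5) were studied without treatment and after 120 minutes of growth hormone (GH). The null cells lack Stat5a and Stat5b, the transcription factors that carry much of the growth hormone signal, and S5 cells lack both endogenous genes as well. The labels name neither a vehicle control nor null cells with an empty vector, so the effects of the vector's infection and of STAT5A cannot be told apart. Each genotype is its own cell preparation, so genotype and preparation cannot be told apart either, and p-values measure the spread between the arrays of a group, which the design text calls biological duplicates.

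Values are log2 expression values, so a difference of 1 is a doubling. Arrays had medians of 2.86 to 3.02, and 54.3% of probe sets lay below 4, where values hardly vary; such levels are called the low mode. Without hormone, Stat5a averaged 11.48 in WT and 2.44 in KO, and Stat5b 9.01 and 1.98. A second Stat5a probe set was at 9.88 in untreated S5 and between 2.22 and 2.35 in the WT and KO groups. The hormone's known target Socs2 rose from 7.21 to 11.43 in WT and from 8.92 to 13.43 in S5. All 10 fibroblast markers lay above 4 on every WT array, 9 on every KO array and 8 on every S5 array, and 1 lay below 4 on every KO array. The mean over the 10 ran from 13.03 to 13.17 in WT, 12.62 to 12.72 in KO and 10.84 to 11.35 in S5. Ptprc, the pan-leukocyte marker CD45 and 1 of 13 macrophage and blood cell markers, averaged 9.38 in WT and 2.50 in KO without hormone. The mean over the 13 ran from 9.12 to 10.79 in WT, 4.02 to 4.48 in KO and 3.25 to 3.55 in S5. Of these 13, 11 were above 4 on all WT arrays, and only Itgam was in the low mode on all 12. The 3′ minus 5′ signal of the Gapdh control, a sign of RNA length, was 1.02 ± 0.15 in WT, 1.04 ± 0.08 in KO and 1.52 ± 0.08 in S5 (SD, n = 4 arrays); that of the beta-actin control was 2.88 ± 0.25, 2.96 ± 0.17 and 3.09 ± 0.05, a smaller step that lay within the WT spread. These values differ between the genotypes compared below, and their part in the differences was not tested. In bulk RNA, fewer cells of a type and less RNA per cell cannot be told apart.

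Differences were tested with limma over all genes, with Benjamini-Hochberg adjusted p-values at 0.05, and each genotype difference is the mean of the untreated and the treated one. The 3 genotype comparisons share arrays with each other. Between KO and WT, 6 of the 9 genes passed, 3 higher and 3 lower, where 38.2% of all genes passed. Between S5 and KO, 8 passed, 5 higher and 3 lower, against 37.2% of all genes. Between S5 and WT, 5 passed, all higher in S5, against 44.8% of all genes; with the probe sets of a gene averaged, Ccng1 passed too and was lower in S5. The median difference over the 9 genes was 0.15, 0.21 and 0.28 in these comparisons, and over all genes 0, -0.02 and -0.02. The arrays of KO and WT did not overlap for 4 of the 9 genes, against 32.3% of all genes, those of S5 and KO for 7 against 33.8%, and those of S5 and WT for 2 against 40.3%.

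**Figure D1:**
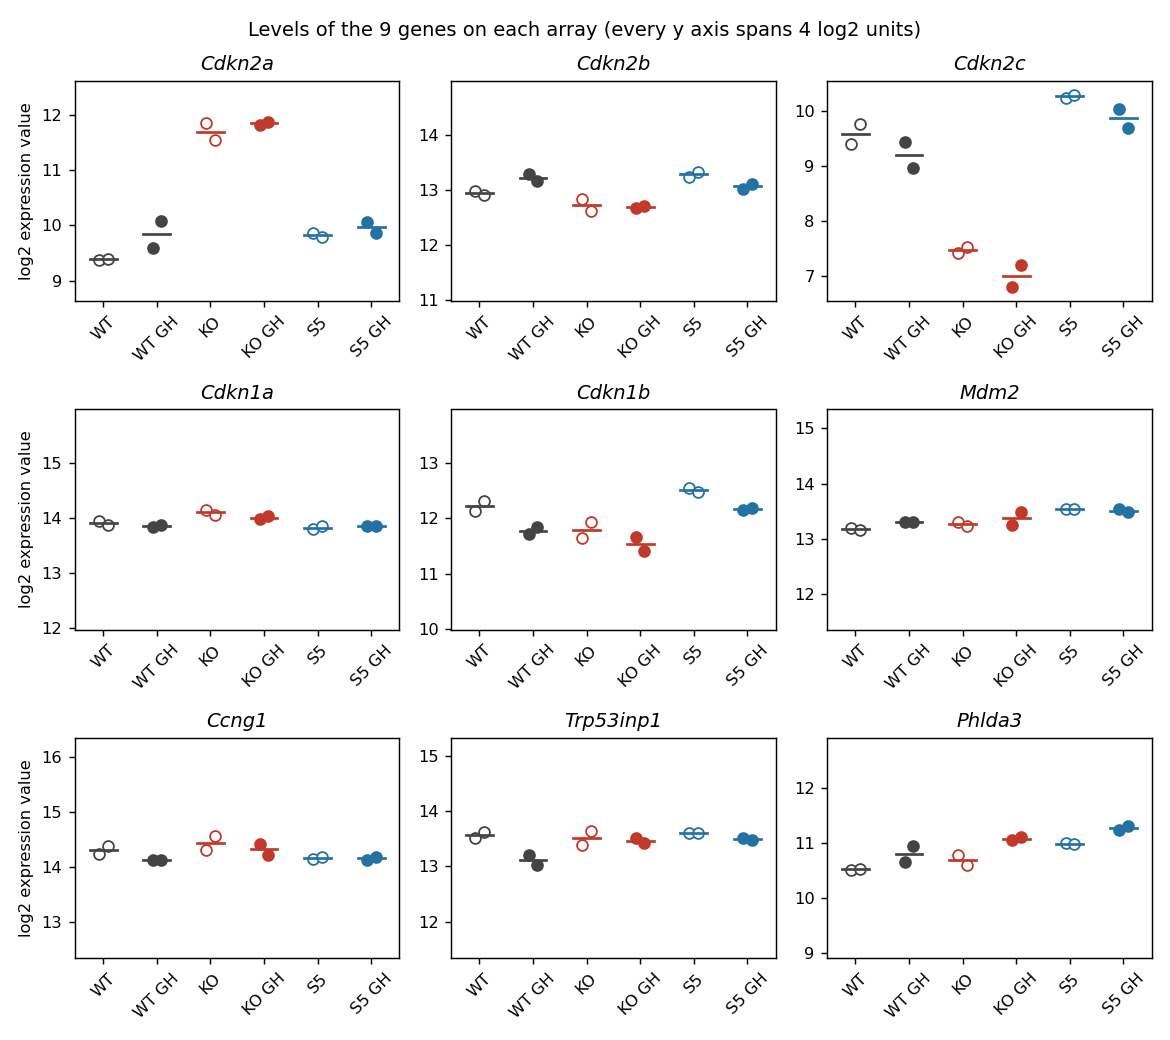
Log2 expression value of each of the 9 genes (its probe set with the highest mean) on each of the 12 arrays. Points are arrays, open without and filled with growth hormone (GH), lines are group means of 2 arrays, and every y axis spans 4 log2 units. Cdkn2a is high and Cdkn2c low in the 4 KO arrays, and the other 7 genes differ far less between groups.

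Cdkn2a makes 2 unrelated proteins from 2 starts: p16INK4a, which blocks CDK4 and CDK6, and p19ARF, which holds back MDM2 and so frees p53. Which of them the probe set (1450140_a_at) reads was not analysed here. The 100 bases before each RefSeq start are shown because the array value is 1 number for 2 promoters; both lie on the minus strand of GRCm38.p6, with CG pairs in capitals. The start farther upstream, that of p19ARF, has 15 CG pairs (chr4:89294620-89294719), and the p16INK4a start has 2 (chr4:89282193-89282292).
Cdkn2a, p19ARF start: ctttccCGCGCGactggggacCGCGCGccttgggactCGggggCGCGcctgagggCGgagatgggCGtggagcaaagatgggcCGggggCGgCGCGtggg
Cdkn2a, p16INK4a start: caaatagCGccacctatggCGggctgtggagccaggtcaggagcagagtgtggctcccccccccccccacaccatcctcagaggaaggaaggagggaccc

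Cdkn2a read 9.37 and 9.40 in WT and 9.60 and 10.09 in WT with hormone. In KO it read 11.86 and 11.55, and with hormone 11.83 and 11.88. In S5 it read 9.87 and 9.79, and with hormone 10.06 and 9.87. All 4 KO arrays lay above all 8 others, while the S5 arrays fell inside the range of the WT arrays. KO exceeded WT by 2.16 (SE 0.12, adjusted p = 7.75e-06), or 4.48-fold, and S5 was below KO by 3.69-fold (log2 -1.88, SE 0.12, adjusted p = 1.13e-05). S5 minus WT was 0.28 (95% interval 0.01 to 0.55, adjusted p = 0.0902) and did not pass; without WT_GH replicate 2 it was 0.40 and did (adjusted p = 0.0104). The order of the genotypes was thus KO above S5 and WT, with the latter pair not separated by the test.

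Cdkn2b encodes p15INK4b, the neighbour of Cdkn2a on chromosome 4 and an INK4 inhibitor known for its induction by TGF-beta. Its probe set (1449152_at) read 12.97 and 12.90 in WT, 13.28 and 13.15 in WT with hormone, 12.83 and 12.62 in KO, 12.66 and 12.70 in KO with hormone, 13.24 and 13.33 in S5, and 13.02 and 13.10 in S5 with hormone. The 4 KO arrays were the lowest of the 12, opposite to Cdkn2a. KO lay below WT by 1.30-fold (log2 -0.38, SE 0.06, adjusted p = 0.00134) and S5 above KO by 1.39-fold (log2 0.47, SE 0.06, adjusted p = 0.000388). S5 and WT arrays overlapped, with a difference of 0.10 (95% interval -0.03 to 0.23, adjusted p = 0.208).

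Cdkn2c encodes p18INK4c, an INK4 inhibitor that E2F factors are known to induce as cells enter S phase. RefSeq gives it 2 starts on the minus strand, and the 100 bases before each are shown with CG pairs in capitals: 17 before the upstream start (chr4:109666757-109666856) and 2 before the downstream one (chr4:109665373-109665472).
Cdkn2c, upstream start: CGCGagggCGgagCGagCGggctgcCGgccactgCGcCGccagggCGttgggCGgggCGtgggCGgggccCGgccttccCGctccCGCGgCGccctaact
Cdkn2c, downstream start: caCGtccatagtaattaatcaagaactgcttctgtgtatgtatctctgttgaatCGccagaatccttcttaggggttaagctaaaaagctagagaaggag

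The Cdkn2c probe set (1416868_at) read 9.40 and 9.76 in WT and 9.43 and 8.97 in WT with hormone. In KO it read 7.42 and 7.53, and with hormone 6.80 and 7.21. In S5 it read 10.24 and 10.29, and with hormone 10.04 and 9.70. The 4 KO arrays lay below all others, and the highest WT array, at 9.76, overlapped the S5 range by reaching above its lowest array. KO was 4.44-fold below WT (log2 -2.15, SE 0.15, adjusted p = 2.98e-05). S5 was 7.10-fold above KO (log2 2.83, SE 0.15, adjusted p = 5.14e-06) and 1.60-fold above WT (log2 0.68, SE 0.15, adjusted p = 0.00764). Cdkn2c was thus ordered S5, WT, KO, with each step past the test.

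Cdkn1a encodes p21, the best known p53 target, which stops the cycle after DNA damage. Of 11 RefSeq start windows found for 8 of the 9 genes (250 bases before to 50 after a start), 3 held the 10-letter p53 half-site, against 8.36% of 32851 windows of that length; the search covered both strands, since the half-site is its own reverse complement. They belong to Cdkn1a, Mdm2 and Ccng1, and 60 bases around the match are shown for each, from GRCm38.p6, with the half-sites in capitals. In Cdkn1a (plus strand, chr17:29090903-29090962) half-sites begin 73 and 51 bases before the upstream of its RefSeq starts. The window of its downstream start (chr17:29093519-29093818) held none. In Mdm2 (minus strand, chr10:117710910-117710969) the half-site begins 186 bases before the start, and in Ccng1 (minus strand, chr11:40755437-40755496) 185 bases before it. None of the 11 windows held the STAT5 motif TTCNNNGAA, which 8.30% of all windows did. A match describes letters and no binding, and no match says only that the letters are not in the window.
Cdkn1a: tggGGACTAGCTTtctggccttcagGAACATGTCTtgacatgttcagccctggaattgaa
Mdm2: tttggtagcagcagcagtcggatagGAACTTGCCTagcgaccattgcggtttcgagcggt
Ccng1: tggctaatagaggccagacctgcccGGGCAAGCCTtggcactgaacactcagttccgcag

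Cdkn1a was among the brightest genes on every array. Its main probe set (1424638_at, the one with the highest mean) read 13.93 and 13.86 in WT, 13.83 and 13.87 in WT with hormone, 14.14 and 14.05 in KO, 13.97 and 14.03 in KO with hormone, 13.79 and 13.85 in S5, and 13.84 and 13.85 in S5 with hormone. The 4 KO arrays lay above all 8 others, by a narrow margin. KO exceeded WT by 0.17 (SE 0.03, adjusted p = 0.00484), or 1.13-fold, and S5 was below KO by 1.16-fold (log2 -0.21, adjusted p = 0.00175). S5 minus WT was -0.04 (95% interval -0.12 to 0.04, adjusted p = 0.372). The second probe set (1421679_a_at) gave larger differences in the same directions: KO minus WT was 0.58 (adjusted p = 0.00708) and S5 minus KO was -0.87 (adjusted p = 0.000907), adjusted over all probe sets. On that probe set KO read 10.12 to 10.61 over 4 arrays, WT 9.46 to 10.21 and S5 9.40 to 9.57, so KO and WT overlapped while KO and S5 did not.

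Cdkn1b encodes p27, which holds cyclin-CDK pairs inactive in resting cells and is destroyed through SKP2 as they enter the cycle. Its probe set (1434045_at) read 12.13 and 12.32 in WT, 11.72 and 11.84 in WT with hormone, 11.64 and 11.94 in KO, 11.67 and 11.41 in KO with hormone, 12.55 and 12.48 in S5, and 12.15 and 12.19 in S5 with hormone. S5 arrays lay above all KO arrays, and WT arrays overlapped both. S5 was 1.60-fold above KO (log2 0.68, SE 0.09, adjusted p = 0.000587) and 1.27-fold above WT (log2 0.34, SE 0.09, adjusted p = 0.0142). KO was 1.26-fold below WT (log2 -0.34, SE 0.09, adjusted p = 0.0177). The KO difference no longer passed without WT replicate 2 (adjusted p = 0.0608), WT_GH replicate 2 (0.0594) or KO_GH replicate 2 (0.0536), with probe sets averaged (0.0649) or with only its groups fitted (0.0529), and the S5 to WT difference sat at 0.05 without WT_GH replicate 1. A second Cdkn1b probe set (1419497_at) stayed in the low mode, at 1.77 to 2.57, and tells nothing on the gene. It enters the averaged value all the same, where KO minus WT was -0.21, so that value says little on the strength of the call.

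Mdm2 encodes the ligase that destroys p53 and is itself a p53 target. Its main probe set (1423605_a_at) read 13.19 and 13.15 in WT, 13.30 and 13.30 in WT with hormone, 13.30 and 13.23 in KO, 13.25 and 13.48 in KO with hormone, 13.53 and 13.54 in S5, and 13.53 and 13.48 in S5 with hormone. S5 arrays lay at or above every other array. S5 exceeded WT by 1.22-fold (log2 0.29, SE 0.05, adjusted p = 0.00206) and KO by 1.16-fold (log2 0.21, SE 0.05, adjusted p = 0.0124), and the latter did not pass when a gene's probe sets were averaged (adjusted p = 0.0572). KO minus WT was 0.08 (95% interval -0.04 to 0.19, adjusted p = 0.288); it passed without KO_GH replicate 1 (log2 0.14, adjusted p = 0.0115) and with probe sets averaged (log2 0.18, adjusted p = 0.0405). A second probe set (1427718_a_at) read 7.80 to 8.99 over the WT arrays, 8.57 to 9.02 in KO and 8.89 to 9.34 in S5, with S5 above WT by 0.69 (adjusted p = 0.00998 over all probe sets). The third (1457929_at) stayed between 2.49 and 2.84, in the low mode, and enters the averaged values above.

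Ccng1 encodes cyclin G1, a p53 target that feeds back on MDM2. Its main probe set (1420827_a_at) read 14.24 and 14.38 in WT, 14.12 and 14.13 in WT with hormone, 14.31 and 14.57 in KO, 14.42 and 14.22 in KO with hormone, 14.14 and 14.19 in S5, and 14.12 and 14.19 in S5 with hormone. KO arrays lay above all S5 arrays and overlapped WT. S5 was below KO by 1.17-fold (log2 -0.22, SE 0.07, adjusted p = 0.0453), and KO minus WT was 0.16 (95% interval 0.00 to 0.33, adjusted p = 0.122). S5 minus WT was -0.06 (95% interval -0.22 to 0.11, adjusted p = 0.537), and -0.22 with the probe sets averaged, where it passed (adjusted p = 0.00294).

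Of the other Ccng1 probe sets, the third separated the genotypes more widely. It (1450017_at) read 11.77 to 11.94 in KO, 11.26 to 11.49 in WT and 10.79 to 11.17 in S5, with no overlap between any pair of genotypes. On it KO was 0.54 above WT (adjusted p = 0.00024) and S5 was below KO by log2 -0.88 (adjusted p = 1.56e-05) and below WT by log2 -0.34 (adjusted p = 0.00169). On the second (1450016_at), S5 was below KO by log2 -0.37 (adjusted p = 0.000713) and below WT by log2 -0.27 (adjusted p = 0.00307), and KO minus WT was 0.11 (adjusted p = 0.145). The call of the main probe set was weak: S5 minus KO no longer passed when any array but KO replicate 1 or KO_GH replicate 2 was left out (adjusted p = 0.0541 to 0.13, the values 0.112 without KO replicate 2 and 0.13 without KO_GH replicate 1), after quantile normalization (0.0526) or with only its groups fitted (0.0869). KO minus WT passed without KO replicate 1 (log2 0.23, adjusted p = 0.0321) and when the probe sets were averaged (log2 0.27, adjusted p = 0.00137).

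**Figure D2:**
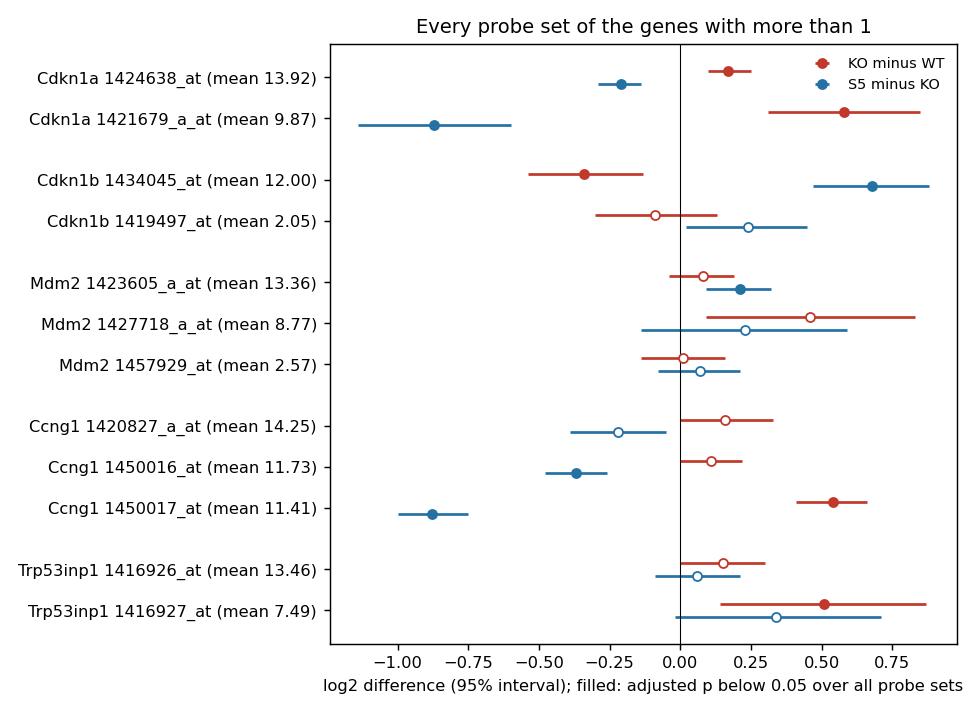
Differences between genotypes on every probe set of the 5 genes with more than 1, on the log2 scale, for KO minus WT and S5 minus KO. Points are limma estimates with 95% intervals, filled where the adjusted p over all probe sets is below 0.05, and each label gives the mean of the probe set over 12 arrays. The second probe set of Cdkn1a and the third of Ccng1 show differences of the same sign as the first and a larger size.

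Trp53inp1 encodes a stress protein that p53 induces and that helps it activate cell death genes. Its main probe set (1416926_at) read 13.52 and 13.62 in WT, 13.21 and 13.03 in WT with hormone, 13.39 and 13.64 in KO, 13.51 and 13.43 in KO with hormone, 13.60 and 13.61 in S5, and 13.51 and 13.49 in S5 with hormone. The hormone-treated WT arrays lay below the other 10, which overlapped. S5 exceeded WT by 1.16-fold (log2 0.21, SE 0.06, adjusted p = 0.0314), KO minus WT was 0.15 (95% interval 0.00 to 0.30, adjusted p = 0.118) and S5 minus KO was 0.06 (95% interval -0.09 to 0.21, adjusted p = 0.499). The first no longer passed without WT replicate 1 (adjusted p = 0.0953), WT_GH replicate 2 (0.0966) or any 1 of the 4 S5 arrays (0.0675 to 0.085), or after median centring (log2 0.16, adjusted p = 0.12). KO minus WT passed without KO replicate 1 (log2 0.21, adjusted p = 0.0256). With the 2 probe sets averaged, S5 minus WT still passed. KO minus WT (log2 0.33, adjusted p = 0.00455) and S5 minus KO (log2 0.20, adjusted p = 0.0402) then passed too. A second probe set (1416927_at) read 6.79 to 7.26 in WT, 7.02 to 8.17 in KO and 7.32 to 8.26 in S5, with KO above WT by 0.51 (adjusted p = 0.0426) and S5 above WT by 0.85 (adjusted p = 0.0034).

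Phlda3 encodes a small p53-induced protein that keeps AKT from the membrane. Its probe set (1449002_at) read 10.51 and 10.54 in WT, 10.66 and 10.96 in WT with hormone, 10.78 and 10.61 in KO, 11.06 and 11.11 in KO with hormone, a mean of 10.99 ± 0.02 in S5 (SD, n = 2), and 11.24 and 11.32 in S5 with hormone. S5 arrays lay above all WT arrays, and KO arrays overlapped both. S5 exceeded WT by 1.38-fold (log2 0.46, SE 0.07, adjusted p = 0.00108) and KO by 1.18-fold (log2 0.24, SE 0.07, adjusted p = 0.0296), and KO exceeded WT by 1.17-fold (log2 0.22, SE 0.07, adjusted p = 0.0415). The KO to WT step did not pass when any array but WT_GH replicate 2 or KO replicate 2 was left out (adjusted p = 0.059 to 0.127), or with only its groups fitted (0.0953). The S5 to KO step did not pass without KO replicate 2, KO_GH replicate 1, KO_GH replicate 2 or any 1 of the 4 S5 arrays (adjusted p = 0.0513 to 0.0921), nor after quantile normalization (0.0738) or median centring (0.0562).

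**Figure D3:**
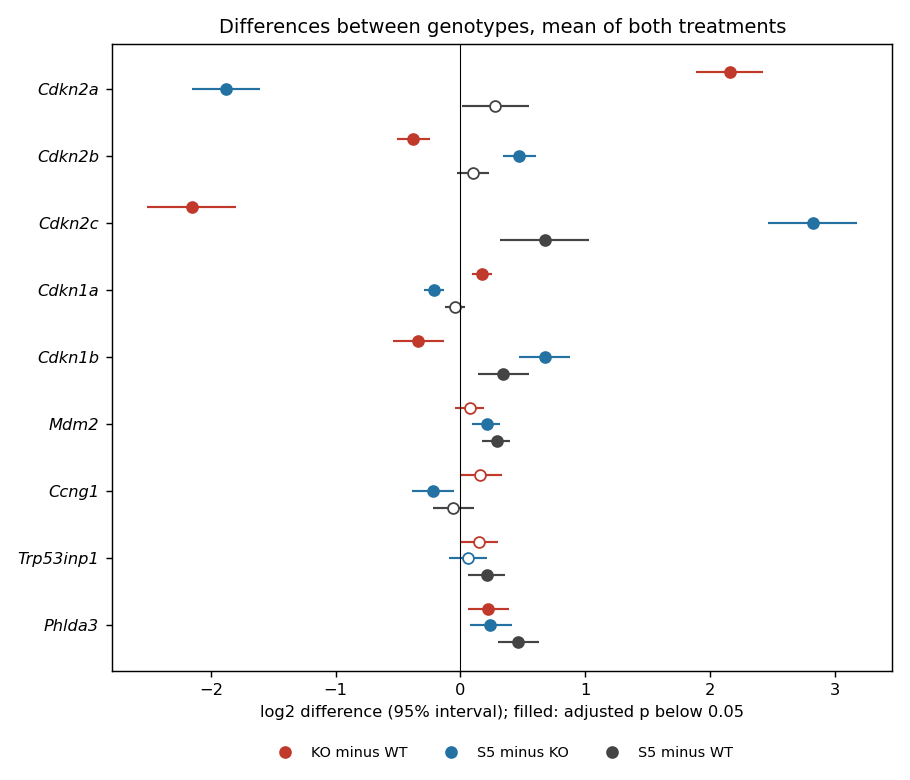
Differences between genotypes for the 9 genes on the log2 scale, each the mean of the untreated and the treated difference. Points are limma estimates with 95% intervals, filled where the adjusted p is below 0.05. Cdkn2a (2.16 and -1.88) and Cdkn2c (-2.15 and 2.83) mirror each other in KO minus WT and S5 minus KO, and no other gene reaches 1 in size.

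Growth hormone lowered 1 of the 9 genes in WT, where 6.00% of all genes passed. None of the 9 passed in KO, against 0.308% of all genes, and none in S5, against 7.88%; at an unadjusted p under 0.05, limma gave 5 of the 9 genes in WT, 1 in KO and 3 in S5, and 3510, 1800 and 3733 of all genes. The gene lowered in WT was Trp53inp1, by 1.37-fold (log2 -0.45, SE 0.09, adjusted p = 0.0331), from 13.57 ± 0.07 to 13.12 ± 0.13 (SD, n = 2). It no longer passed without WT replicate 1 (adjusted p = 0.0793), WT replicate 2 (0.145), WT_GH replicate 2 (0.164) or any 1 of the 4 S5 arrays (0.0559 to 0.0645), or in a fit of the WT groups alone (0.128). Its changes were -0.05 in KO (95% interval -0.26 to 0.17) and -0.11 in S5 (-0.32 to 0.11). On its second probe set the changes were -0.41 in WT, -0.68 in KO and -0.71 in S5 (adjusted p = 0.408, 0.376 and 0.118 over all probe sets). The change was thus largest in WT on the first and in S5 on the second. The response of S5 minus that of WT was 0.34 on the first and -0.30 on the second. Neither passed in the limma fit over all probe sets (adjusted p = 0.308 and 0.903). The contrast between the probe sets was not tested. Averaging the 2 probe sets gave a call in S5 (log2 -0.41, adjusted p = 0.0341).

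Among the inhibitors, hormone-treated and untreated WT arrays did not overlap for Cdkn2a, Cdkn2b and Cdkn1b, but no change passed. In WT, Cdkn2a changed by 0.46 (95% interval 0.08 to 0.84, adjusted p = 0.176), Cdkn2b by 0.28 (0.09 to 0.46, adjusted p = 0.0974) and Cdkn1b by -0.44 (-0.73 to -0.16, adjusted p = 0.0891). Without WT_GH replicate 1, Cdkn2a (log2 0.70, adjusted p = 0.045) and Phlda3 (log2 0.44, adjusted p = 0.037) passed in WT. Treated and untreated arrays did not overlap for 7 of the 9 genes in WT, 3 in KO and 6 in S5, against 59.8%, 26.0% and 62.5% of all genes, so such separation was common on these arrays. The Cdkn1a intervals were -0.16 to 0.06 in WT, -0.20 to 0.02 in KO and -0.09 to 0.13 in S5. In WT, the second probe set of Cdkn1a changed by 0.56 (adjusted p = 0.133) and that of Mdm2 by 0.81 (adjusted p = 0.11), neither past the test over all probe sets.

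The hormone response was also compared between genotypes with interaction terms. None of the 9 genes passed for WT against KO, S5 against KO or S5 against WT, where 1.27%, 1.13% and 2.92% of all genes passed; at an unadjusted p under 0.05, limma gave 2, 0 and 2 of the 9, and 1656, 1775 and 2452 of all genes. The nearest was Cdkn2b, which moved by 0.28 in WT and -0.22 in S5 (difference -0.50, 95% interval -0.76 to -0.24, adjusted p = 0.0717). Its WT arrays were higher and its S5 arrays lower after hormone, with no overlap in either. The difference passed without KO replicate 1 or KO replicate 2 (adjusted p = 0.0402 in each), arrays that enter it only through the shared estimate of spread. For Trp53inp1 the response of WT was below that of KO by -0.41 (95% interval -0.71 to -0.10, adjusted p = 0.314). On its second probe set the same difference had the other sign, at 0.27 (95% interval -0.46 to 0.99), and did not pass either.

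The mean of the 3 hormone effects, a contrast chosen after the data were seen, passed for 3 of the 9 genes, against 14.5% of all genes. Phlda3 rose by 1.25-fold (log2 0.32, SE 0.06, adjusted p = 0.0122), with 0.29 in WT, 0.39 in KO and 0.29 in S5, and both treated arrays lay above both untreated ones in each genotype. Cdkn1b fell by 1.27-fold (log2 -0.35, SE 0.07, adjusted p = 0.0194), with -0.44, -0.25 and -0.35; its treated arrays were the lower ones in WT and S5 and overlapped in KO. It did not pass without S5 replicate 1 or S5_GH replicate 1 (adjusted p = 0.0536 in each). Trp53inp1 fell by 1.15-fold (log2 -0.20, adjusted p = 0.0442), which passed only without WT_GH replicate 1 or KO replicate 1 among the 12 leave-outs and ran to adjusted p = 0.104 in the others, and did not pass after quantile normalization (0.0502) or median centring (0.0536). Cdkn2c changed by -0.38, -0.47 and -0.40, with a mean of -0.41 (95% interval -0.70 to -0.13, adjusted p = 0.0675), which passed without WT_GH replicate 1 (log2 -0.49, adjusted p = 0.0449), after median centring (0.0439) and with genes of mean below 4 left out (0.0367). Cdkn2a's mean effect of 0.25 passed without WT_GH replicate 1 (log2 0.33, adjusted p = 0.0298), and Mdm2's of 0.06 without KO_GH replicate 1 (log2 0.10, adjusted p = 0.0351). That of Ccng1, -0.10, passed with probe sets averaged (log2 -0.13, adjusted p = 0.0397). On the second probe set of Trp53inp1 (1416927_at) the mean effect was larger, at -0.60 (95% interval -0.89 to -0.30). It passed in the limma fit over all probe sets (adjusted p = 0.0266), where the main probe set did not (0.0521).

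**Figure D4:**
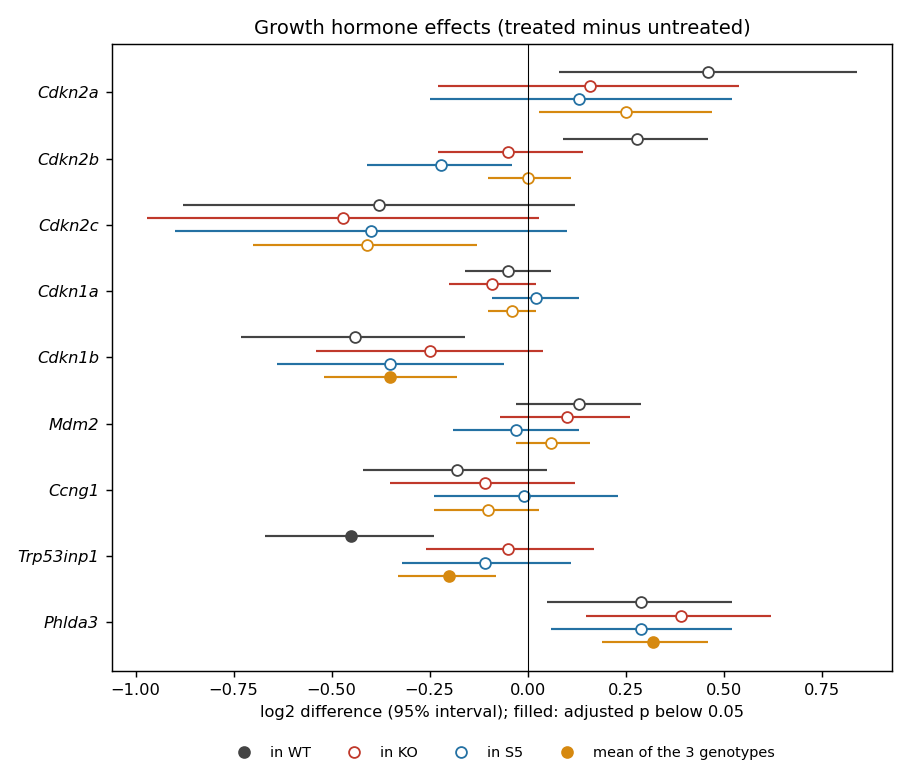
Growth hormone effects (treated minus untreated) for the 9 genes on the log2 scale, in each genotype and as the mean of the 3. Points are limma estimates with 95% intervals, filled where the adjusted p is below 0.05. Within a genotype only Trp53inp1 in WT passed, and the mean passed for Cdkn1b, Trp53inp1 and Phlda3.

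Other p53 targets moved between the genotypes in both directions. Of 30 listed targets outside the 9 genes, 28 were tested, and 14 rose and 6 fell in KO against WT (median 0.23, against 0 over all genes). In S5 against KO, 15 rose and 7 fell (median 0.25), and in S5 against WT, 12 rose and 6 fell (median 0.40). Over all genes 38.2%, 37.2% and 44.8% passed. Perp, a membrane protein of cell contacts and apoptosis, was 4.97-fold higher in KO than in WT (group means 13.35 and 11.09 without hormone, adjusted p = 5.17e-09), and Rprm, which arrests cells in G2, was 3.63-fold higher (10.84 and 8.93, adjusted p = 7.59e-06). Ckap2, a spindle protein, was 2.81-fold lower (adjusted p = 1.67e-05). Perp and Rprm stayed high in S5, each 5.97-fold above WT, whereas Cdkn2a was close to WT there. The death receptor Fas rose 5.19-fold after hormone in WT (adjusted p = 3.83e-05) and 1.93-fold in S5 (adjusted p = 0.00355). It was 1 of 3 targets that passed in WT (1 higher, 2 lower) and 1 of 7 in S5 (2 higher, 5 lower), with 0 of 28 in KO, where 6.00%, 7.88% and 0.308% of all genes passed.

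Among 21 regulators and relatives of p53, 6 rose and 1 fell in KO against WT (median 0.04), 4 rose and 1 fell in S5 against KO, and 8 rose and 3 fell in S5 against WT. Over all genes 38.2%, 37.2% and 44.8% passed, so these counts stood near or below the background. Chek1, the checkpoint kinase of replicating cells, was 2.0-fold lower in KO than in WT (adjusted p = 0.000174) and 2.48-fold lower in S5 than in WT (adjusted p = 2.82e-05). Ppp1r13b, which encodes the p53 partner ASPP1, was 2.44-fold higher in KO than in WT (adjusted p = 7.32e-05). Sirt1, a deacetylase of p53, was 2.56-fold higher in S5 than in KO (adjusted p = 9.26e-05). Trp63, a p53 relative, was in the low mode in every group except untreated S5, at 5.41.

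Of 27 cyclins, CDKs, RB and E2F genes and further inhibitors, 26 were tested, and 7 rose and 15 fell in KO against WT (median -0.38), where 38.2% of all genes passed. In S5 against KO, 8 rose and 8 fell (median 0.03, 37.2% of all genes), and in S5 against WT, 5 rose and 17 fell (median -0.57, 44.8% of all genes). Ccna2, the S phase cyclin A2, averaged 12.65 in WT, 10.05 in KO and 11.57 in S5 without hormone, and was 6.20-fold lower in KO than in WT (adjusted p = 6.39e-07). Cdk1, the mitotic kinase, was 2.35-fold lower (adjusted p = 5.46e-06) and the pocket protein gene Rbl1 was 3.44-fold lower (adjusted p = 7.37e-06). Cdk6, a target of the INK4 inhibitors, averaged 11.19 in WT, 10.39 in KO and 7.26 in S5 without hormone. Hormone raised it 9.96-fold in S5 (adjusted p = 6.93e-05). Rb1 was 2.20-fold higher in S5 than in KO (adjusted p = 1.22e-05).

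Most genes of dividing cells were lower in KO and in S5 than in WT. Of 18 proliferation genes, 16 fell and none rose in KO against WT (median -1.80); in S5 against KO, 8 rose and 4 fell (median 0.29), and in S5 against WT, 16 fell and none rose (median -1.25). Over all genes 38.2%, 37.2% and 44.8% passed. Mki67, the Ki-67 antigen, averaged 12.54 in WT, 9.24 in KO and 11.38 in S5 without hormone, which placed KO 9.33-fold below WT (adjusted p = 2.08e-07) and S5 4.30-fold above KO (adjusted p = 9.34e-07). Tk1, the thymidine kinase of S phase, was 5.18-fold lower in KO (adjusted p = 2.07e-06) and stayed 3.94-fold below WT in S5 (adjusted p = 2.91e-06). No proliferation gene passed after hormone in WT, KO or S5, where 6.00%, 0.308% and 7.88% of all genes passed. Cdkn2c was lower in KO than in WT (log2 -2.15), as were 16 of these 18 genes, and was above KO in S5 (log2 2.83). It stood above WT in S5 (log2 0.68), where 16 of the 18 stood below WT. Whether these levels are linked was not tested.

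Of 20 listed regulators of the Cdkn2a locus, 5 rose and 6 fell in KO against WT (median -0.11), 10 rose and 6 fell in S5 against KO, and 10 rose and 8 fell in S5 against WT, where 38.2%, 37.2% and 44.8% of all genes passed. Polycomb proteins repress the locus in young fibroblasts, and their genes were split: in KO against WT, Ezh2 was 1.89-fold lower (11.26 and 10.32 in untreated WT and KO, adjusted p = 8.57e-06) and Eed 1.86-fold lower (adjusted p = 3.02e-05), while Bmi1 was 1.44-fold higher (adjusted p = 3.81e-05) and Ring1 1.57-fold higher (adjusted p = 0.000742). In S5, Id3, an inhibitor of basic helix-loop-helix factors, was 3.81-fold above KO (adjusted p = 2.54e-06). The repressor Tbx3 was 2.80-fold below KO (adjusted p = 1.09e-05).

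The genes beside Cdkn2a on its chromosome did not share its pattern. Mtap, the neighbour on one side, was lower in KO than in WT by log2 -0.44 (adjusted p = 6.69e-05) and higher in S5 than in KO by 0.41 (adjusted p = 8.17e-05), as was Cdkn2b on the other side. The interferon genes Ifna1, Ifna4 and Ifna5 and the gene Zfp352 stayed in the low mode in all 6 groups. Dmrta1 was above it only in untreated S5, at 7.40, and Elavl2, an RNA-binding protein gene, averaged 7.04 in WT, 2.61 in KO and 7.77 in S5 without hormone.

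**Figure D5:**
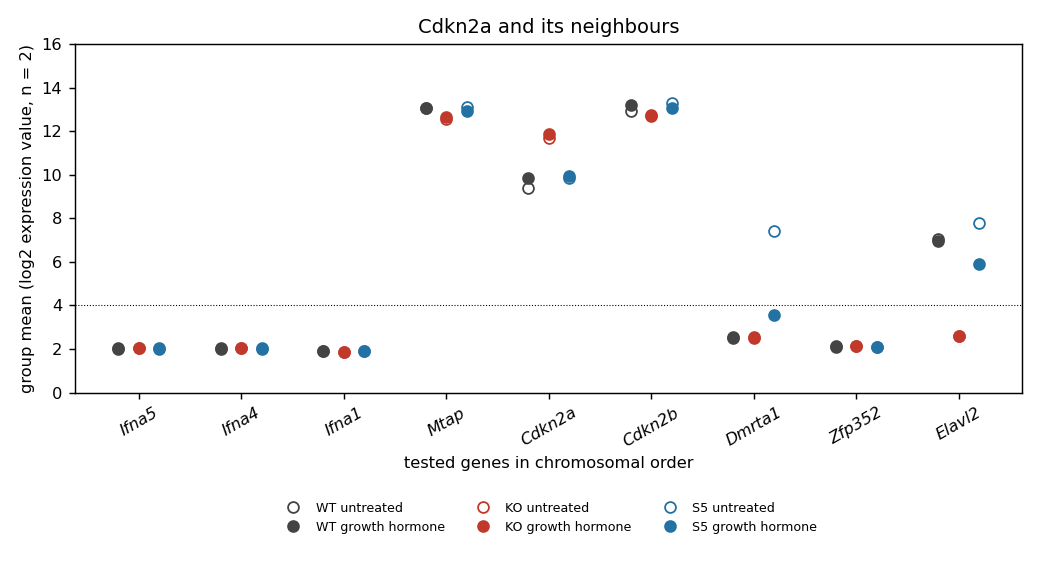
Group means (log2 expression value, 2 arrays each) of Cdkn2a and the 4 tested genes on each side of it, in chromosomal order. Open points are untreated and filled points hormone-treated groups, and the dotted line at 4 bounds the low mode. Of the genes with a group above that line, Cdkn2a is the only 1 with its highest means in KO (11.70 and 11.86).

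Among genes with a mean of 4 or more and group means spanning at least 1, those whose levels followed a member most closely over the 12 arrays were named for Cdkn2a and Cdkn2c, the members with such a span. Of 4869 genes compared, Stn1 (Pearson r = 0.987), Galk2 (0.984) and Cmtm3 (0.981) were most like Cdkn2a. Galk2 averaged 8.33 in WT, 10.53 in KO and 8.90 in S5 without hormone. Nid2 (0.99), Clip4 (0.989) and Cdh17 (0.984) were most like Cdkn2c. Nid2, a basement membrane protein gene, averaged 9.75 in WT, 7.56 in KO and 10.84 in S5 without hormone. The 12 arrays come from 3 genotypes, so these values describe mostly the step between genotypes.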

How the data were processed

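RNA of 12 samples was measured on Affymetrix arrays. The deposited log2 values came from GCOS and RMA per the submitters' processing notes; settings are not given in the sources used here, and no label states the scale, which was read from the range of 0.99 to 15.95. Of 45101 probe sets, 64 controls, 932 with several genes and 9160 with no listed gene were left out. The remaining 34945 covered 18193 genes, 18031 of them in the RefSeq table, and each gene was read from its brightest probe set on average.

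limma 3.58.1 (R 4.3.3) fitted a mean for each of 6 groups to all arrays (6 residual and 1.2 prior degrees of freedom), with two-sided p-values adjusted by Benjamini-Hochberg over all genes at 0.05. Other probe sets came from the same fit over all probe sets. The code was tested on simulated data. With 2 arrays a group, precision is limited. SDs are between arrays and SEs from limma.

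The 9 genes were named whatever their values. From each list, up to 4 genes per comparison with the smallest adjusted p could be named, besides neighbours of Cdkn2a and 3 genes most like a member. Members and lists were chosen with earlier results of these data known. Alternatives covered probe sets, scaling, a filter on low values, the groups fitted, replicate number and each array left out.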

Additional observations from a re-analysis of the deposited data

How the results depend on the processing

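No result changed direction while called. Over the 10 comparisons of the 9 genes, 1706 of 1800 alternative values stayed on the same side of the threshold, 74 lost a call and 20 gained one. Most of these values belong to a gene and comparison not called in the main fit, which could not lose a call. The calls for Cdkn2a, Cdkn2b, Cdkn2c and Cdkn1a in KO against WT and in S5 against KO held under every alternative tried. Of the 9 genes, the number called after hormone in WT was 1, and 0 both with the replicate block and with the 2 WT groups fitted alone; leaving out 1 array gave 0 to 3. In S5 it was 0, and 1 with the mean of probe sets. For the response of S5 against WT it was 0, with 0 to 1 on leaving out an array, and for the mean hormone effect 3, with 1 to 5. A group left with 1 array is assumed to vary like the others.

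Counts over all genes moved by more than 1.5 times as follows. In WT, 1092 genes became 266 with only its groups fitted and 547 without WT_GH replicate 2. In KO, 56 became 32 with the block, 0 with only its groups (limma gave 1800 at an unadjusted p under 0.05 in the fit of all groups), 140 without KO_GH replicate 1 and 20 without S5 replicate 1 or 2. In S5, 1433 became 532 with only its groups, 682 without S5 replicate 1, 552 without S5 replicate 2 and 661 without S5_GH replicate 1. For WT against KO, 231 became 116 with only their groups, 129 with genes below a mean of 4 left out, 355 without WT replicate 2 and 150 without S5 replicate 1 or 2. For S5 against KO, 205 became 114 with only their groups. The mean effect fell from 2645 to 1594 genes without S5 replicate 2.

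Deviations of same-numbered arrays had no common sign: over 15 pairs of groups they correlated between -0.36 and 0.20 (median -0.02). Of these pairs, 1 was over 0.1 and 3 were under -0.1. The check cannot decide whether samples were paired or shared a batch, since arrays of a batch may carry different numbers. With the block, no call on the 9 genes was gained, and those lost were Trp53inp1 in WT (adjusted p = 0.0601), its mean effect (0.0725) and S5 against WT (0.0508), Phlda3 in KO against WT (0.0554) and Ccng1 in S5 against KO (0.0566).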
